A study of Mus musculus with 18 samples.

Results

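The 39 mouse Hox cluster genes were followed in RNA-seq counts of sorted medullary thymic epithelial cells (mTECs) from mice labelled Aire KO, Fezf2 KO and Chd4 conditional knockout (cKO). They were chosen by symbol, as the rows named Hoxa, Hoxb, Hoxc or Hoxd with a number, and all 39 were present both among the 49585 genes counted for Aire and Fezf2 and among the 21969 counted for Chd4. HoxA held 11 of them (chromosome 6, 52155590 to 52260880, GRCm38), HoxB 10 (chromosome 11, 96194316 to 96368256), HoxC 9 (chromosome 15, 102921103 to 103036852) and HoxD 9 (chromosome 2, 74668310 to 74765142). By paralogue group, 12 were anterior (1 to 4), 11 central (5 to 8) and 16 posterior (9 to 13).

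Hox genes encode homeodomain transcription factors that give body segments their identity along the head-to-tail axis. Within each cluster the genes lie on the chromosome in the order of their paralogue groups, and genes at the anterior end are switched on earlier and nearer the head than those at the posterior end. The thymus forms from pharyngeal pouch endoderm, where Hoxa3 is required for thymus and parathyroid development. mTECs are known for transcribing genes of many peripheral tissues, which they present to developing T cells, and Aire and Fezf2 are regulators of such genes, while Chd4 is the ATPase of the NuRD chromatin remodelling complex.

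The 18 libraries formed 6 groups of 3. The wild-type (WT) control for Aire, the group labelled Aire KO, a separate WT control for Fezf2 and the Fezf2 KO were all of the C57BL/6 strain. The Chd4 groups were of the C57BL/6x129P2 background, and both carried floxed Chd4 alleles, with Foxn1-Cre added in the cKO. Foxn1-Cre is active throughout thymic epithelium and is not limited to mTECs. The sample labels call the Fezf2 mutants KO, whereas the column names of the counts call them cKO, so whether that deletion was conditional is not settled here. Neither the age and number of the mice nor the deleted exons were given in the sources used here.

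Total exon reads per library ranged from 3571570 to 17220157, the highest being library B of the Chd4 cKO. Fezf2 fell from 652.4 ± 82.4 to 13.6 ± 8.46 CPM (reads scaled to library size, mean ± SD, n = 3) in its KO, and Chd4 fell from 60.3 ± 5.69 to 27.4 ± 2.80 CPM in its cKO. Aire rose from 2018 ± 255 to 3941 ± 182 CPM in the libraries labelled Aire KO, so the count cannot serve as a check of that genotype. The 12 mTEC markers, among them Epcam, Krt5 and Foxn1, summed to between 14601 and 23655 CPM in every library. Their sum was higher in each knockout group than in its control, without overlap. It was 22922 to 23655 against 17377 to 19442 CPM for Aire and 19324 to 20973 against 14601 to 18732.5 CPM for Fezf2. For Chd4 it was 18371 to 20188 against 16606 to 17062 CPM. This sum includes Aire and Fezf2, and H2-Aa alone made 9776 ± 886.9 CPM of it in the WT for Aire, against 12410 ± 639.5 CPM under the Aire KO label. Of the 12, 4 were higher and 3 lower in the Aire comparison, 1 higher (Krt5) and 1 lower (Fezf2) in the Fezf2 comparison, and 4 higher and 3 lower in the Chd4 comparison. The WT for Fezf2 held more thymocyte RNA than the WT for Aire, with 4 of 12 thymocyte markers higher and summed levels of 388.6 to 717.9 against 66.1 to 148.5 CPM. The 3 libraries of each group carry the letters A to C. The labels do not say whether they came from separate mice, so p-values measure only the spread between these libraries.

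The sequences shown are those next to the changes described below. Gm53, a long intergenic noncoding RNA gene (chromosome 11, 96251105 to 96264868), lies between Hoxb13 and Hoxb9, and the gene of microRNA miR-196a, Mir196a-1, begins 296 bases past its end. Mature miR-196a has the same sequence from its HoxB and HoxC genes and shares its seed with miR-196b of HoxA. RefSeq (GRCm38.p6) gives these mature sequences 5′ to 3′, with the seed (bases 2 to 8) in capitals.
mmu-miR-196a-5p: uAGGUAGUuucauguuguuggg
mmu-miR-196b-5p: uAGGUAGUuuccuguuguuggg
All 7 microRNA genes annotated inside the clusters had 0 reads in the 12 Aire and Fezf2 libraries, which were not made to capture mature microRNAs.

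Promoter windows of 300 bases, from 250 before to 50 after a transcription start, were in the RefSeq table for 22 of the 39 genes. Those of Hoxb13, Hoxb9, Hoxc11, Hoxc10 and Hoxc6 were not among them. The windows of Hoxd1 (chr2:74762730-74763029), Hoxd3 (chr2:74711743-74712042) and Hoxd4 (chr2:74721728-74722027), all on the plus strand, are shown because the summed level of the anterior HoxD genes was lower in the Fezf2 KO. Hoxd3 and Hoxd4 share exon bases with each other, so that sum is uncertain. CG dinucleotides, which are dense in most Hox promoters, are in capitals.
Hoxd1: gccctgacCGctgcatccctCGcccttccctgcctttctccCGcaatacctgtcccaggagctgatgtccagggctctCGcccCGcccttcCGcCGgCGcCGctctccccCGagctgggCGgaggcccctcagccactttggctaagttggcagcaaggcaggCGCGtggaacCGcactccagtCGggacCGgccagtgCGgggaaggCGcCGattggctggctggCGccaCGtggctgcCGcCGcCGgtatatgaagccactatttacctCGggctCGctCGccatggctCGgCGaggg
Hoxd3: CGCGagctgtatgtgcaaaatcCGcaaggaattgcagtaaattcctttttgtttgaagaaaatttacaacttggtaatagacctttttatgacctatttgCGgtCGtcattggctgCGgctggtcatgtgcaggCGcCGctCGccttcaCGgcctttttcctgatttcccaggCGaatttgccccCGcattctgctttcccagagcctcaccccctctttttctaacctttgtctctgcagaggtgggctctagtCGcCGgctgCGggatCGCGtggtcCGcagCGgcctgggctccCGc
Hoxd4: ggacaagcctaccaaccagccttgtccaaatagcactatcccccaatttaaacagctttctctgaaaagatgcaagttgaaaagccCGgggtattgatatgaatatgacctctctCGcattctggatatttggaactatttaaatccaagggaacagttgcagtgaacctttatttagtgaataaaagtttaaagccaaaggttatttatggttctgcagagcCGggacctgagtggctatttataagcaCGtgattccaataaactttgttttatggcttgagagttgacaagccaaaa
These windows held 29, 20 and 4 CG dinucleotides for Hoxd1, Hoxd3 and Hoxd4. The 24 windows of these 22 genes held 4 to 45 CG dinucleotides with a median of 14.5, against a median of 7 over all 32851 promoters of that length. The letters TGATTNAT, a site bound by PBX and HOX proteins together, were found on either strand in 2 of the 24 windows (8.33%) and in 3.22% of all promoters, and in none of the 3 shown. The letters TATAAA were found on either strand in 4 of the 24 (16.7%) and in 13.6% of all, and among the 3 shown only in that of Hoxd4.

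Hox transcripts were scarce in mTECs, and the most abundant in each control group was Hoxb13, the most posterior gene of HoxB. The 39 genes together took 143 to 1242 reads per library and 5699 over the 18 libraries, of which Hoxb13 took 1025 and Hoxc11 took 568. In each library 3 reads correspond to between 0.174 and 0.840 CPM, so lower levels could not be measured. A total of 7 genes had a read in all 18 libraries, and Hoxa6 was the only gene under 10 reads in all, with 1. The grid of mean levels by cluster and paralogue group shows this pattern.

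**Figure D1:**
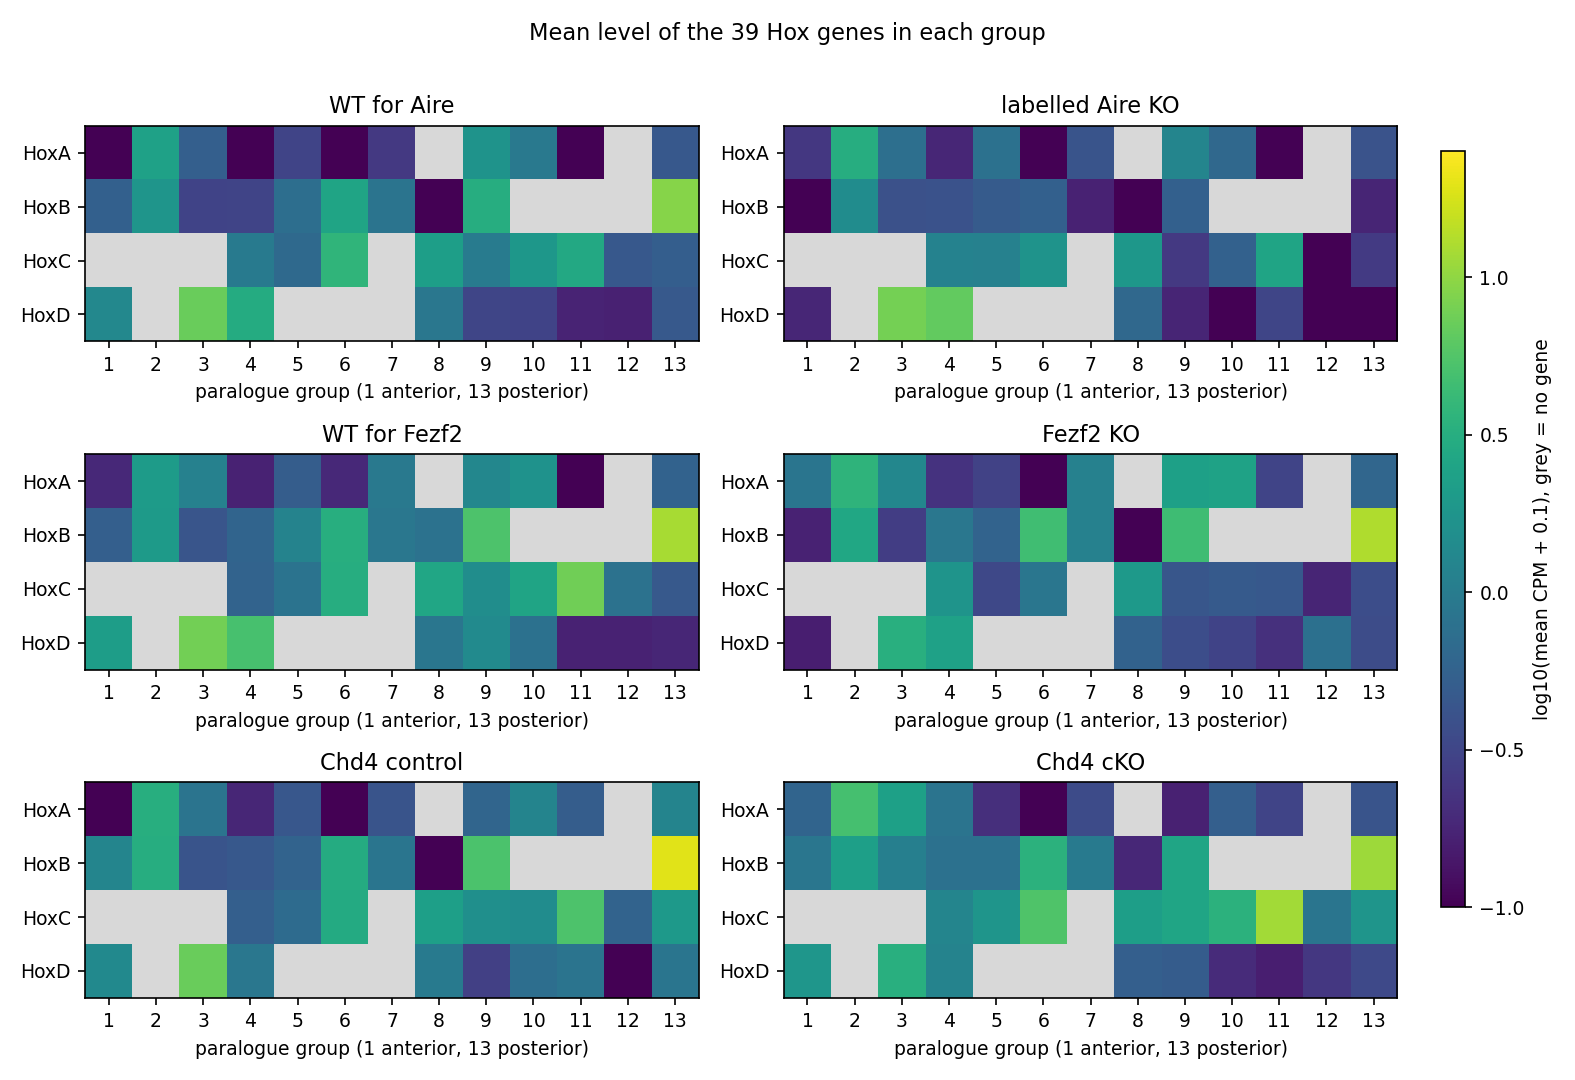
Mean level of each of the 39 Hox genes in the 6 groups, as log10(CPM + 0.1) with n = 3 libraries per group; rows are clusters, columns are paralogue groups and grey marks positions with no gene. Hoxb13 (HoxB, position 13) is the highest cell in each control group and dark in the group labelled Aire KO.

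Levels of different genes were compared per kilobase of exon. Hoxb13, known from the tail bud, prostate and distal colon, ranked first in all 3 control groups, at 4.14 ± 2.44, 5.50 ± 1.95 and 8.74 ± 2.51 CPM per kb in the controls of Aire, Fezf2 and Chd4, in that order. In the WT for Aire it was followed by Hoxd3 at 1.77 ± 0.409 and Hoxc6 at 1.499 ± 0.477 CPM per kb, which do not differ beyond their spread. In the WT for Fezf2 Hoxc11 was second at 3.70 ± 3.99 CPM per kb, a value set by library B, and in the Chd4 control it was second at 2.59 ± 0.550 CPM per kb. Hoxa2, an identity gene of the second pharyngeal arch, was the highest of HoxA in each control, at 1.12 to 1.76 CPM per kb.

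Hoxa3, the gene needed for thymus formation, was near the limit of measurement in every group but the Chd4 cKO. It had 1, 2 and 3 reads in the WT for Aire (A to C), 4, 6 and 3 in the WT for Fezf2 and 1, 4 and 4 in the Chd4 control. In the knockouts it had 1, 8 and 0 reads (labelled Aire KO), 7, 8 and 3 (Fezf2 KO) and 14, 25 and 15 (Chd4 cKO). The Aire and Fezf2 groups overlapped with their controls. All 3 Chd4 cKO libraries lay above all 3 controls, at 2.23 ± 0.894 against 0.743 ± 0.400 CPM (SD, n = 3), but the gene did not reach the count filter, and without that filter its adjusted p was 0.125.

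**Figure D2:**
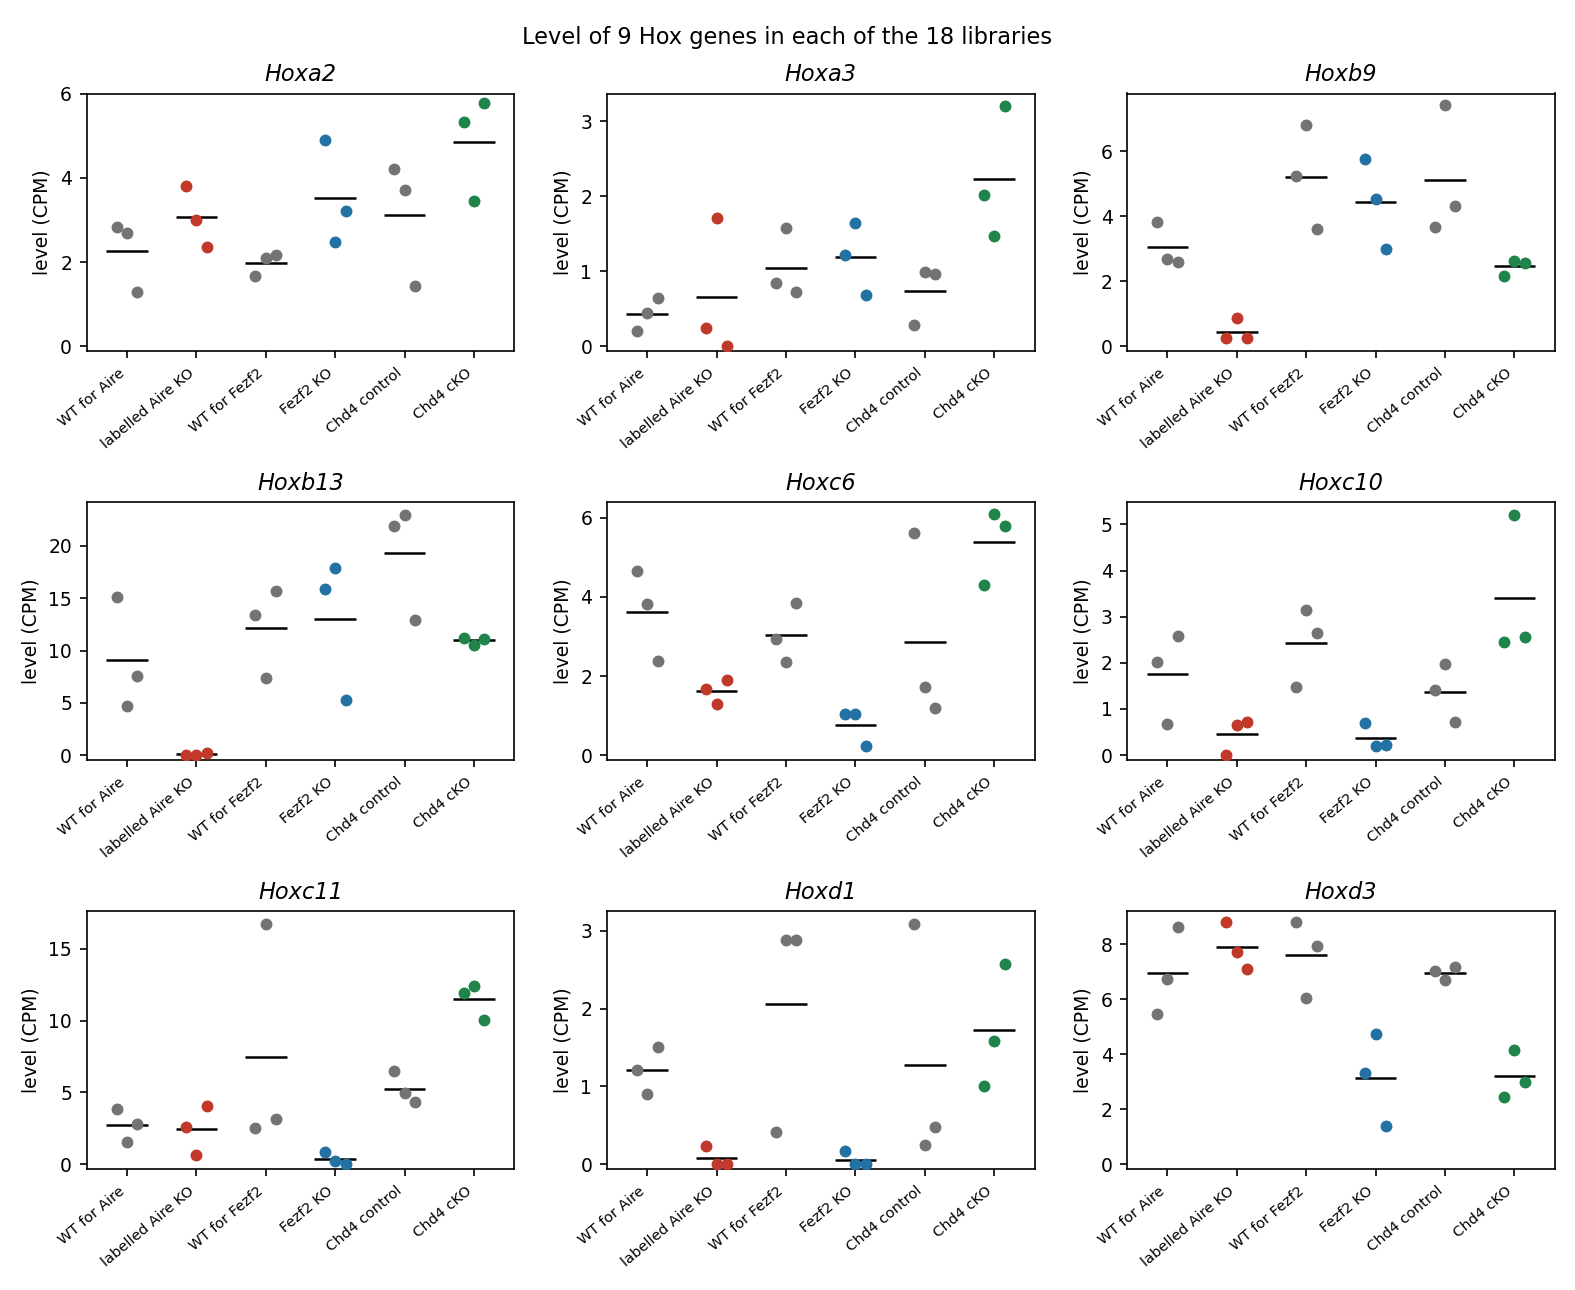
Level in CPM of 9 Hox genes in each library (points) with the group mean (line), n = 3 per group. Hoxb13 and Hoxb9 are near 0 in the libraries labelled Aire KO, Hoxc11 is near 0 in the Fezf2 KO, and Hoxc11 of the Chd4 cKO lies above its control.

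The Aire comparison asks which mTEC transcripts depend on Aire. The posterior HoxB genes Hoxb13 and Hoxb9 were called lower, and none of the Hox genes tested was called higher. Both passed the count filter through the WT libraries alone, so their direction is tied to that filter. In an edgeR fit without the filter both were still called (adjusted p 3.62e-13 and 0.0240). Hoxb13 (ENSMUSG00000049604, chromosome 11, 96194316 to 96197447) had 75, 21 and 35 reads in the WT libraries and 0, 0 and 1 in those labelled Aire KO. Every WT library was thus far above every library labelled Aire KO. Its level was 9.14 ± 5.39 against 0.0788 ± 0.137 CPM (SD, n = 3), and the reads differed by a ratio of 122 (exact 95% interval for counting error 21.5 to 4861). The log2 fold change was -6.46 (SE 0.88, edgeR quasi-likelihood adjusted p = 0.000268), and the call held without any 1 library. Fewer cells that transcribe a gene and less RNA per cell cannot be told apart in these bulk samples.

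Hoxb9 (ENSMUSG00000020875, chromosome 11, 96271457 to 96276595), which takes part in patterning of ribs and mammary gland, had 19, 12 and 12 reads in the WT and 1, 4 and 1 in the libraries labelled Aire KO. These groups did not overlap either, at 3.04 ± 0.691 and 0.444 ± 0.358 CPM. The log2 fold change was -2.67 (SE 0.68, edgeR adjusted p = 0.0173). Its call was lost without library A of the WT (adjusted p = 0.0853) and without library A or C of those labelled Aire KO (0.0721 and 0.0672).

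The 2 genes lie with Gm53 in the posterior 82.3 kb of HoxB, and Gm53 changed with them. Gm53 had 18, 13 and 12 reads in the WT and 0, 0 and 1 in the libraries labelled Aire KO (log2 fold change -4.89, SE 0.91, edgeR adjusted p = 0.00247). It was chosen for mention after its values were seen, as the transcript between both genes. Gm53 also passed the count filter through the WT libraries alone. Ttll6, a tubulin polyglutamylase gene that ends 28.9 kb before Hoxb13, had 32, 18 and 56 reads in the WT and 14, 22 and 4 in the libraries labelled Aire KO, which overlap (log2 fold change -1.31, SE 0.57). Skap1, beyond the anterior end of HoxB, had a log2 fold change of 0.20 (adjusted p = 0.804). The plot of HoxB in chromosomal order places these beside the rest of the cluster.

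**Figure D3:**
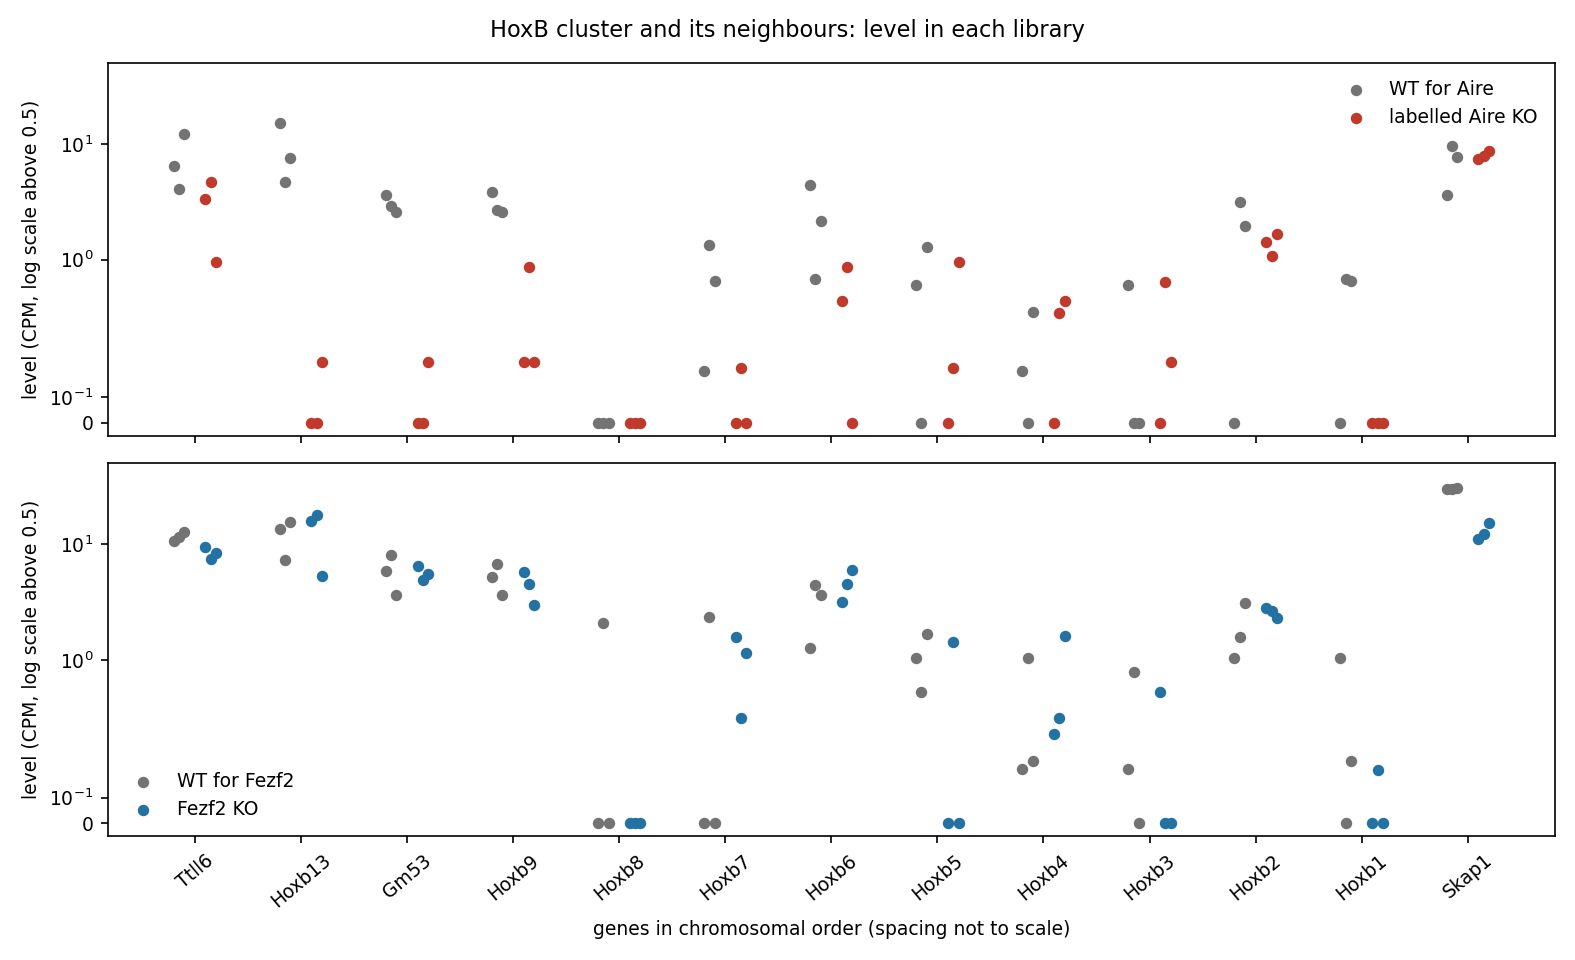
Level in CPM of Ttll6, the HoxB genes, Gm53 and Skap1 in chromosomal order, for each library of the Aire comparison (top) and the Fezf2 comparison (bottom), on an axis that is linear up to 0.5 CPM and logarithmic above. Hoxb13, Gm53 and Hoxb9 separate the WT from the libraries labelled Aire KO, while the Fezf2 KO and its WT overlap at all 3.

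Of the 39 Hox genes, 7 passed the count filter here and 2 were called, both lower, while 15.1% of all 14949 genes tested were called (856 higher, 1401 lower). Libraries of the groups did not overlap for 3 of the 7, all lower, against 32.1% of all genes tested. All 3 passed the count filter through the WT libraries alone, so their direction is tied to that filter. The third was Hoxc6 (23, 17 and 11 reads against 7, 6 and 8, log2 fold change -1.15, adjusted p = 0.173), a thoracic gene also known from mammary gland. The median log2 fold change of the 7 was -0.19, against -0.00041 over all genes tested. The anterior genes Hoxa2, Hoxd3 and Hoxd4 had log2 fold changes of 0.42, 0.18 and 1.17 (adjusted p 0.669, 0.793 and 0.149), and the posterior Hoxc11 one of -0.19 (adjusted p = 0.889).

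Outside the filter, the anterior Hoxd1, the central Hoxb6 and Hoxb7 and some HoxC genes had fewer reads in the libraries labelled Aire KO. Hoxd1, known in mouse from pain-sensing neurons, had 6, 4 and 7 reads in the WT and 1, 0 and 0 in those labelled Aire KO, without overlap (ratio 15.9, exact 95% interval 2.48 to 662.5). In a fit without the filter its log2 fold change was -3.55 (SE 1.52, adjusted p = 0.112). Hoxb6 and Hoxb7 had 35 and 10 reads over the WT libraries and 6 and 1 over those labelled Aire KO, with overlap between libraries. In the fit without the filter their edgeR adjusted p was 0.0840 and 0.308. Hoxc10 had 10, 3 and 12 against 0, 3 and 3 reads, and Hoxc9 had 9, 1 and 3 against 1, 1 and 0. Hoxc4 and Hoxc5 went the other way, with 12 and 8 reads over the WT and 14 each over those labelled Aire KO, with overlap. So did Hoxa5, with 3 reads over the WT and 9 over those labelled Aire KO, without overlap. The genes outside the filter were chosen for mention after their values were seen.

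Summed over positions, the posterior genes separated the groups and the anterior genes did not. The 16 posterior genes summed to 33.3, 12.6 and 20.3 CPM in the WT, against 4.52, 4.50 and 8.99 CPM where the label is Aire KO. Without Hoxb13 and Hoxc11, the 2 posterior genes with most reads, they still summed to 14.3, 6.28 and 9.93 against 1.90, 3.86 and 4.73 CPM, with no overlap. The 12 anterior genes summed to 13.5, 17.1 and 20.9 CPM in the WT and to 23.3, 21.4 and 19.9 CPM in those labelled Aire KO, which overlap. The 11 central genes lay in between, at 11.2 ± 3.09 against 6.88 ± 0.831 CPM, without overlap.

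By cluster, HoxB summed to 25.0, 13.2 and 17.3 CPM in the WT, against 2.14, 4.29 and 3.78 CPM in those labelled Aire KO. Its 9 genes other than Hoxb13 also separated the groups, at 9.38 ± 0.743 against 3.33 ± 1.09 CPM. HoxA, HoxC and HoxD overlapped, with group means of 5.85 and 6.94, 13.3 and 8.66, and 12.8 and 15.4 CPM in the WT and in those labelled Aire KO. HoxC without Hoxc11 did separate them, at 13.9, 8.08 and 9.72 CPM in the WT against 4.52, 7.07 and 7.09 CPM. These sums carry no test.

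**Figure D4:**
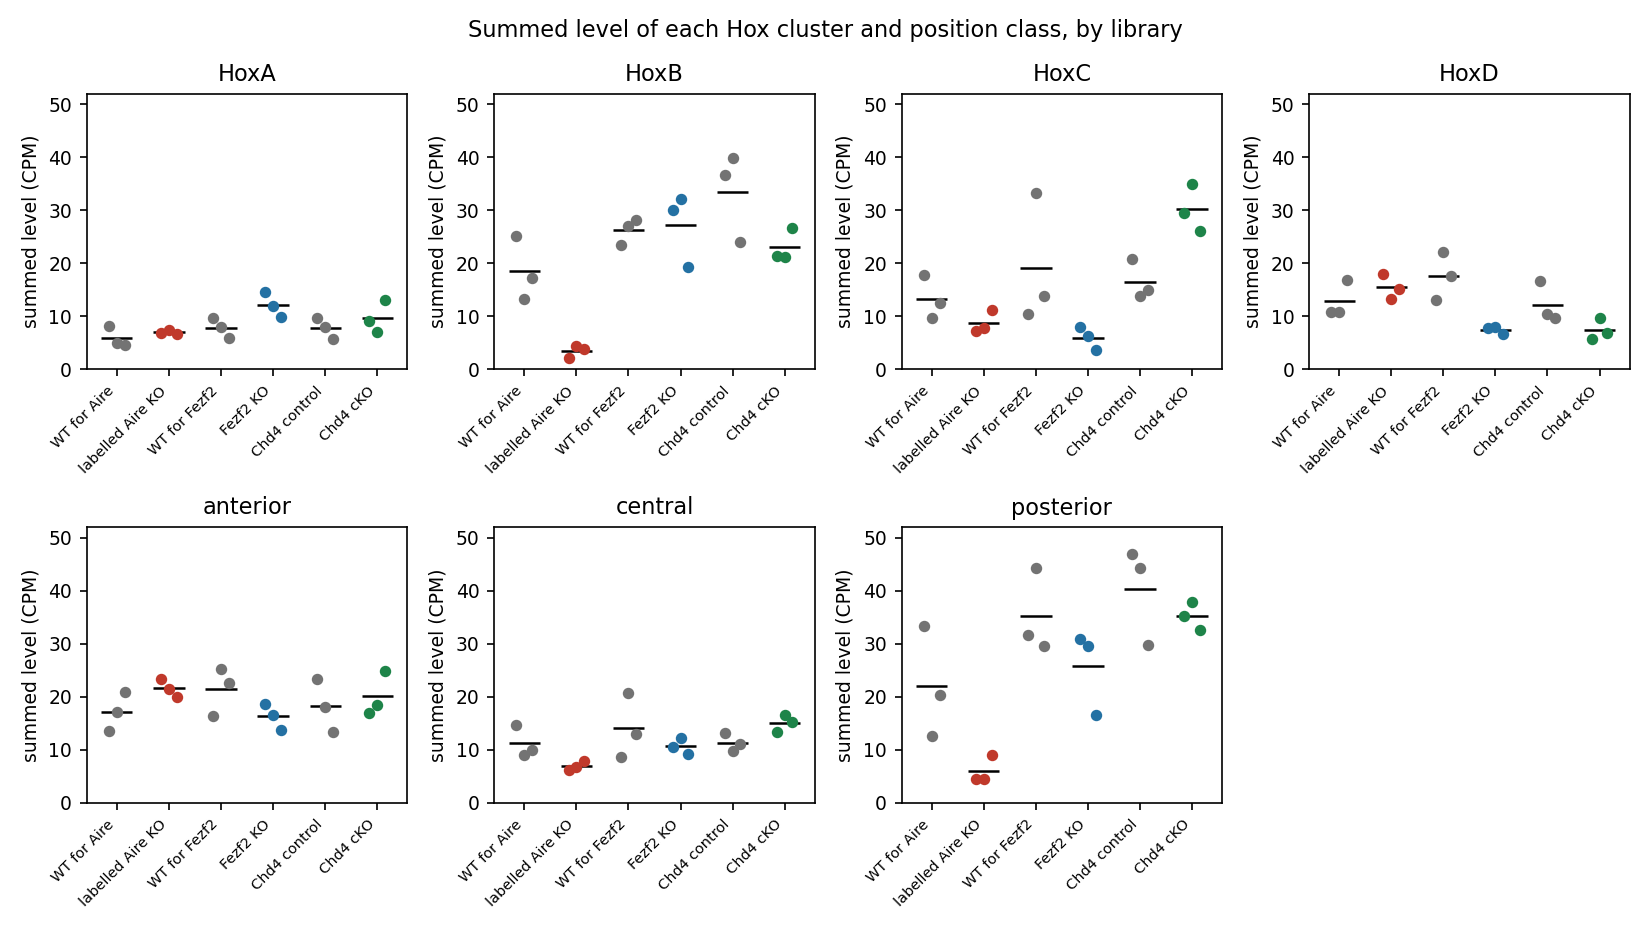
Summed level in CPM of the genes of each cluster (top) and of each position class (bottom) in every library (points) with group means (lines), n = 3 per group. HoxB and the posterior class are lowest in the libraries labelled Aire KO, HoxC and HoxD are lower in the Fezf2 KO than in its WT, and the mean of HoxC is highest in the Chd4 cKO.

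Marker genes of other cell types also moved in the Aire comparison. Of the 5 microfold cell markers, 4 were lower, and their summed level was 637.7 to 922.2 CPM under the Aire KO label against 1161 to 1958 CPM in the WT. Of the 10 fibroblast and mesenchyme markers, 6 were tested, 2 higher and 4 lower, with sums of 351.6 to 448.8 against 219.1 to 266.7 CPM, and Twist2 was at 0 in both groups. Enterocyte and liver markers summed to 168.4 to 389.5 CPM against 523.9 to 576.9 CPM in the WT, with 2 of 4 tested lower, among them Hnf4a (4.67 ± 0.852 to 0.0714 ± 0.124 CPM). Cortical TEC markers summed to 949.8 to 1877 against 588.1 to 831.2 CPM (1 of 6 higher, 1 lower). Endothelial markers summed to 44.8 to 52.4 against 19.5 to 26.3 CPM (1 of 3 tested higher), and B cell markers to 25.7 to 30.95 against 37.3 to 43.4 CPM (4 tested, lowest adjusted p 0.0595). Myeloid (1 higher, 2 lower of 4), neuroendocrine (2 lower of 5), keratinocyte (2 lower of 6), tuft (1 higher of 5) and muscle markers (1 lower of 3) also held called genes, with sums that overlap. The part of any of these in the Hox changes was not tested.

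The Fezf2 KO was compared with its own WT to see which transcripts depend on Fezf2. Hoxc11 fell and HoxB showed no such loss. Hoxc11 (ENSMUSG00000001656, chromosome 15, 102954427 to 102957708), a hindlimb and lumbosacral patterning gene, had 12, 64 and 13 reads in the WT libraries and 5, 1 and 0 in the Fezf2 KO. All WT libraries were above all KO libraries, and library B of the WT held most of its group's reads. The level was 7.47 ± 8.06 against 0.360 ± 0.457 CPM (SD, n = 3), with a log2 fold change of -4.16 (SE 1.03, edgeR adjusted p = 0.0485). The call was lost without library B of the WT (log2 fold change -2.77, adjusted p = 0.0720) and without any 1 of the KO libraries (0.103 to 0.204). The authors' deposited table gives q = 1 for it, beside log2 levels of 1.61 in the WT and -2.71 in the KO. That q may stand for a value not computed, so it is not read as a result.

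Hoxb13 had 64, 28 and 65 reads in the WT for Fezf2 and 91, 87 and 23 in the Fezf2 KO, which overlap (log2 fold change 0.10, SE 0.46, adjusted p = 0.929). Hoxb9 had 25, 26 and 15 against 33, 22 and 13 reads (log2 fold change -0.23, SE 0.46, adjusted p = 0.829). Gm53 between them had 28, 31 and 15 against 37, 24 and 24 reads (log2 fold change -0.05, SE 0.43).

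Of the 39 genes, 8 passed the filter and 1 was called, against 4.87% of all 15695 genes tested. Groups did not overlap for 3 of the 8 (27.5% of all genes tested): Hoxc11 and Hoxd3 lower and Hoxa2 higher. Hoxc11 reached the count filter in every library of the WT only, and Hoxa2 in every library of the KO only. The direction of these genes is therefore tied to that filter. Hoxd3, which shapes the first cervical vertebrae, had 42, 23 and 33 reads in the WT and 19, 23 and 6 in the KO, apart once depth was allowed for (log2 fold change -1.26, SE 0.49, adjusted p = 0.197). Its count is uncertain, as it shares exon bases with Hoxd4 and other genes. Hoxa2 had 8, 8 and 9 against 28, 12 and 14 reads (log2 fold change 0.84, SE 0.52, adjusted p = 0.420). The median log2 fold change of the 8 was -0.06, against -0.03 over all genes tested.

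Outside the filter, some other HoxC genes and Hoxd1 had fewer reads in the Fezf2 KO. Hoxc4 had more, with 6 reads over the WT and 25 over the KO, without overlap. Hoxc6, Hoxc10 and Hoxd1 also had fewer reads in the libraries labelled Aire KO, and the Fezf2 and Aire effects on them were not called different (adjusted p 0.582, 0.763 and 0.851). Hoxc6 had 14, 9 and 16 reads in the WT and 6, 5 and 1 in the KO. Hoxc10, a lumbar patterning gene, had 7, 12 and 11 against 4, 1 and 1. Hoxd1 had 2, 11 and 12 against 1, 0 and 0, a ratio of 29.3 (exact 95% interval 4.80 to 1204). In a fit without the filter, of these 3 only Hoxd1 passed (adjusted p = 0.0454). Hotair, the noncoding RNA between Hoxc12 and Hoxc11, had 20, 23 and 4 against 3, 1 and 0 reads and an adjusted p of 0.0140 in that fit. It was chosen for mention after its values were seen.

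By cluster, HoxC summed to 19.2 ± 12.3 CPM in the WT for Fezf2 and 5.90 ± 2.11 CPM in the KO, without overlap. Its 8 genes other than Hoxc11 also did not overlap, at 11.7 ± 4.37 against 5.54 ± 1.70 CPM. HoxD summed to 17.5 ± 4.50 against 7.45 ± 0.715 CPM, and HoxA to 9.64, 7.86 and 5.78 against 14.5, 11.9 and 9.86 CPM, each without overlap. HoxB overlapped, with means of 26.2 and 27.1 CPM. Sums by position overlapped for the anterior, central and posterior classes alike, with means of 21.4 and 16.3, 14.1 and 10.6, and 35.2 and 25.7 CPM in the WT and the KO, although the posterior class did not overlap when summed per kb of exon. Within the anterior class, the HoxA genes were higher in every KO library (mean 3.18 and 5.60 CPM in WT and KO) and the HoxD genes lower in every one (14.5 and 5.45 CPM). Most of the HoxD level was that of Hoxd3 and Hoxd4 (7.59 and 4.88 CPM in the WT). These share 62.8% and 52.3% of their annotated exon bases with other genes, among them each other, so the HoxD sums are uncertain.

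Of the 12 thymocyte markers, 8 were lower in the Fezf2 KO, with summed levels of 195.7 to 239.7 CPM against 384.7 to 712.7 CPM in its WT. Skap1, an adaptor of T-cell signalling beside HoxB, was lower as well (log2 fold change -1.24, SE 0.24, adjusted p = 0.0178). Enterocyte and liver markers summed to 162.6 to 228.9 CPM in the KO against 497.7 to 598.5 CPM in the WT, with 2 of 5 lower, Vil1 (78.4 ± 6.46 to 16.2 ± 4.07 CPM) and Apoa4 (430.1 ± 61.1 to 153.3 ± 35.6 CPM). Neuroendocrine markers summed to 272.8 to 302.2 against 371.2 to 427.5 CPM (1 of 5 lower). Of the 6 keratinocyte markers 2 were higher and 2 lower, and of the 5 microfold markers 1 was higher and 1 lower, with sums of 793.1 to 896.2 against 590.5 to 1390 CPM and of 1359 to 1463 against 1400 to 1575 CPM. Of the 10 fibroblast markers 6 were tested and 1 was higher, with sums of 234.5 to 308.8 against 153.8 to 219.7 CPM. Without a called gene, the sums of myeloid (581.0 to 842.0 against 941.8 to 1213 CPM), B cell (31.9 to 38.8 against 48.0 to 83.3 CPM) and endothelial markers (33.5 to 76.4 against 15.5 to 33.3 CPM) did not overlap either. The part of any of these in the Hox differences was not tested.

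For the Chd4 cKO against its control, which asks what the remodeller Chd4 changes in mTECs, Hoxc11 rose while Hoxb13 and Hoxd3 fell. Hoxc11 had 23, 20 and 18 reads in the control and 83, 212 and 47 in the cKO, or 6.47, 4.95 and 4.31 against 11.9, 12.4 and 10.1 CPM. All cKO libraries were above all controls once depth was allowed for, and the log2 fold change was 1.15 (SE 0.26, edgeR adjusted p = 0.00847). Its call held without any 1 library.

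Hoxb13 had 78, 93 and 54 reads in the control and 78, 180 and 52 in the deeper cKO libraries, or 19.3 ± 5.54 and 10.96 ± 0.366 CPM without overlap (log2 fold change -0.81, SE 0.24, edgeR adjusted p = 0.0254). Its mean of 10.96 CPM in the cKO compares with 0.0788 CPM in the libraries labelled Aire KO, which differ in strain background and sequencing run. Its call was lost without library A or B of the control or any 1 of the cKO libraries (adjusted p 0.0563 to 0.106). Hoxd3 had 25, 27 and 30 reads in the control and 17, 71 and 14 in the cKO, or 6.96 ± 0.257 and 3.20 ± 0.875 CPM without overlap (log2 fold change -1.08, SE 0.33, edgeR adjusted p = 0.0336). Its call was lost without any 1 library other than B of the cKO (adjusted p 0.0692 to 0.102). Hoxd3 shares 62.8% of its annotated exon bases with other genes, among them Hoxd4, so its count is uncertain. None of the 3 calls passed when the spread was estimated from all 18 libraries (adjusted p 0.221 for Hoxc11, 0.232 for Hoxb13 and 0.0674 for Hoxd3).

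Of the 39 genes, 9 passed the filter and 3 were called (1 higher, 2 lower), against 28.6% of all 15182 genes tested. Groups did not overlap for 5 of the 9, against 44.3% of all genes tested. The others were Hoxb9 (3.66, 7.42 and 4.31 against 2.16, 2.64 and 2.57 CPM, log2 fold change -1.06, adjusted p = 0.0659) and Hoxc10 (1.41, 1.98 and 0.718 against 2.44, 5.21 and 2.57 CPM, log2 fold change 1.38, adjusted p = 0.0712). Hoxc10 passed the count filter through the cKO libraries alone, so its direction is tied to that filter. The median log2 fold change of the 9 was 0.12, against 0.0011 over all genes tested. Ttll6 beside HoxB fell (15.3 ± 5.49 to 6.85 ± 0.486 CPM, log2 fold change -1.15, adjusted p = 0.0129).

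HoxC summed to 20.8, 13.9 and 14.8 CPM in the Chd4 control and to 29.5, 34.9 and 26.1 CPM in the cKO. Without Hoxc11 it still separated the groups, at 11.3 ± 2.79 against 18.7 ± 3.37 CPM. HoxA, HoxB and HoxD overlapped, with means of 7.74 and 9.72, 33.4 and 23.0, and 12.2 and 7.37 CPM. Within the posterior class the clusters differed in direction, as posterior HoxB genes summed to 24.4 ± 6.68 against 13.4 ± 0.265 CPM and posterior HoxC genes to means of 10.46 against 19.8 CPM, both without overlap. The posterior class as a whole overlapped, at 40.3 ± 9.31 and 35.2 ± 2.65 CPM. Of the 6 myeloid markers 4 were tested, 1 higher and 2 lower, with sums of 1023 to 1231 CPM in the control and 565.3 to 730.2 CPM in the cKO, while the fibroblast markers (6 of 10 tested, 1 higher, 2 lower) summed to 251.5 to 313.2 and 305.2 to 315.8 CPM. Microfold markers (2 of 5 lower) summed to 1232 to 1840 CPM in the control and 974.6 to 1082 CPM in the cKO, tuft markers (2 of 5 lower) to 366.9 to 562.1 and 266.8 to 341.9 CPM, and keratinocyte markers (2 of 6 lower) to 381.5 to 555.6 and 176.7 to 322.0 CPM. Ciliated cell markers (2 of 4 lower) summed to 72.3 to 89.0 and 61.9 to 66.4 CPM, neuroendocrine markers (1 of 5 lower) to 429.9 to 512.3 and 296.6 to 417.1 CPM, and B cell markers (1 of 4 higher) to 46.9 to 53.9 and 75.4 to 96.2 CPM. Enterocyte and liver markers (2 of 5 lower) overlapped, at 433.3 to 535.1 and 286.7 to 450.2 CPM, as did cortical TEC (1 of 6 higher) and muscle markers (1 of 3 tested higher). The part of any of these was not tested.

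**Figure D5:**
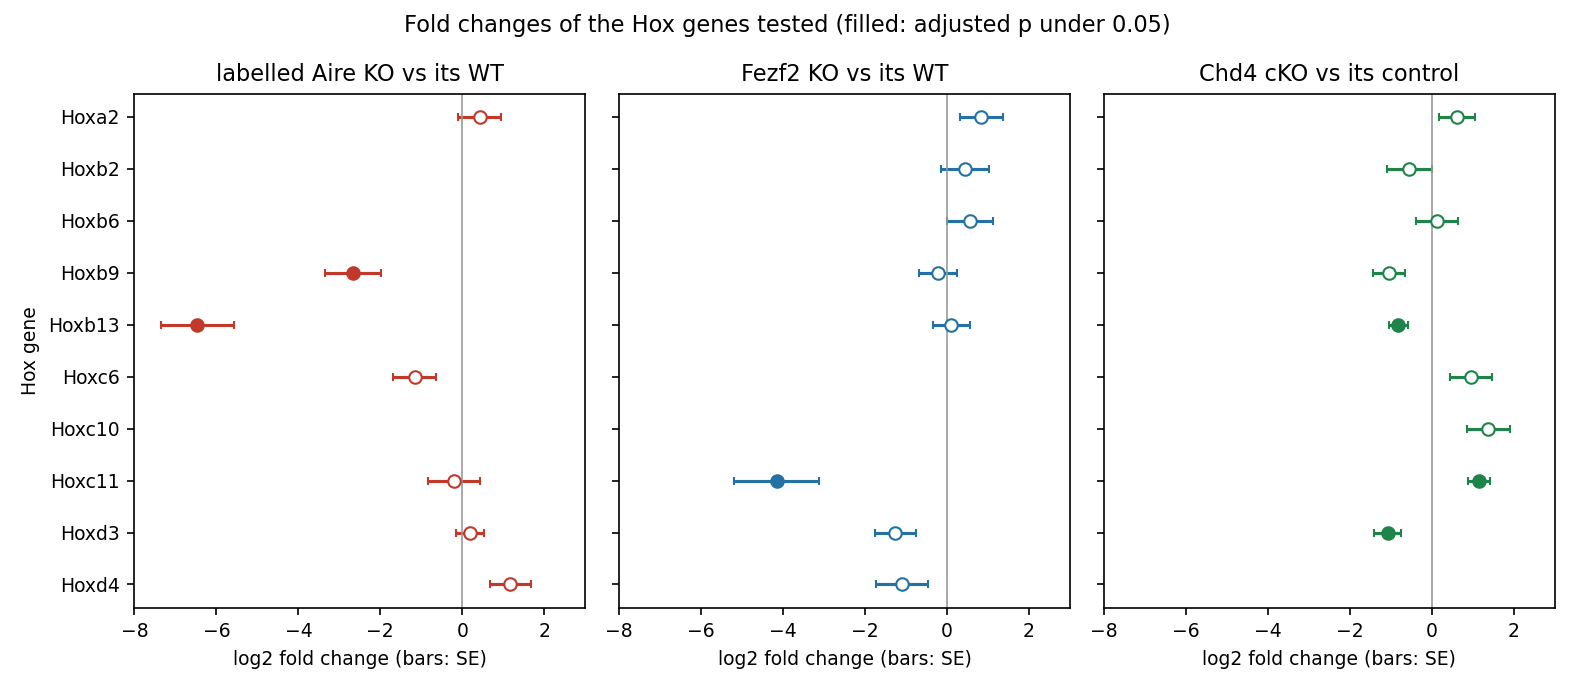
Log2 fold changes with their SE for the Hox genes that passed the count filter in each knockout comparison (7, 8 and 9 genes); filled points have an adjusted p under 0.05. Hoxb13 and Hoxb9 stand far to the left in the Aire panel, Hoxc11 in the Fezf2 panel, and Hoxc11 lies to the right in the Chd4 panel.

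Both WT groups were compared as a check of the spread between control sets. None of the 9 Hox genes tested was called by edgeR or by DESeq2, and none had an unadjusted p under 0.05 in edgeR, while 0.128% of all 15656 genes tested were called. Hoxc11 had the lowest p of the 9 (0.0933), with 19, 7 and 13 reads in the WT for Aire and 12, 64 and 13 in that for Fezf2 (log2 fold change 1.37, SE 0.74). In the edgeR fit without the filter, Hoxc11 and Hoxb8 had an unadjusted p under 0.05 (0.0272 and 0.0366). Their adjusted p was 0.365 and 0.415, and both were higher in the WT for Fezf2. Hoxb13 had a log2 fold change of 0.36 (SE 0.46).

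Differences between the knockout effects were tested as contrasts in a fit of all 18 libraries, in which 13 Hox genes passed the filter. The Fezf2 effect differed from the Aire effect for Hoxb13 by 6.63 (SE 1.03, adjusted p = 0.000118), for Hoxb9 by 2.44 (SE 0.76, adjusted p = 0.0321) and for Hoxc11 by -3.99 (SE 1.13, adjusted p = 0.0185) on the log2 scale. This contrast called 16.9% of all 16169 genes. The Chd4 effect differed from the Aire effect for Hoxb13 by 5.75 (SE 1.06, adjusted p = 0.000699) and for Hoxc10 by 3.26 (SE 1.05, adjusted p = 0.0376), in a contrast that called 16.5% of all genes.

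The Chd4 and Fezf2 effects differed in HoxC and HoxD, in a contrast that called 14.9% of all genes. The difference was 5.33 for Hoxc11 (SE 1.06, adjusted p = 0.00177), 3.92 for Hoxc10 (SE 1.04, adjusted p = 0.0148), 2.90 for Hoxc6 (SE 0.82, adjusted p = 0.0215) and 5.01 for Hoxd1 (SE 1.52, adjusted p = 0.0312). Hoxc6 had 3.05 ± 0.754 CPM in the Fezf2 control and 0.769 ± 0.467 CPM in the KO. It had 20, 7 and 5 reads in the Chd4 control and 30, 104 and 27 in the cKO. Hoxd1 had 2.06 ± 1.42 and 0.0582 ± 0.101 CPM in the Fezf2 pair of groups, and 1.27 ± 1.58 and 1.72 ± 0.791 CPM in the Chd4 pair. The Chd4 libraries carry another strain background and came from another sequencing run by their column names, which cannot be told apart from the gene deleted in the contrasts with Chd4.

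Other genes of the Hox pathway were taken from lists of known members, whose counts of called genes are to be read against the 15.1%, 4.87% and 28.6% of all genes called in the Aire, Fezf2 and Chd4 comparisons. Of 9 TALE homeodomain genes, whose PBX and MEIS products bind DNA with HOX proteins, 8 were tested in the Aire comparison, with a lowest adjusted p of 0.0752. In the Fezf2 KO 1 of 9 was higher, Meis1 (23.2 ± 2.90 to 44.6 ± 6.49 CPM, adjusted p = 0.0397). In the Chd4 cKO 2 of 9 were higher and 1 lower, near the 28.6% of all genes, namely Meis1 (42.4 ± 3.11 to 77.0 ± 19.1 CPM), Meis3 (21.7 ± 4.68 to 36.2 ± 5.15 CPM) and Meis2 (60.0 ± 4.10 to 44.2 ± 4.19 CPM).

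Of 12 genes of the pharyngeal pouch network upstream of the thymus, 8 were tested in the Aire comparison, with a lowest adjusted p of 0.104. Pax9 and Pax1, paired-box factors of the pouch, were the 2 of 8 tested that rose in the Fezf2 KO, from 48.4 ± 5.81 to 98.9 ± 3.12 and from 50.9 ± 9.02 to 94.5 ± 10.7 CPM. In the Chd4 cKO 3 of 9 rose and 2 fell, among them Isl1 (23.0 ± 0.594 to 35.6 ± 3.80 CPM) higher and Tbx1 (4.01 ± 1.37 to 1.10 ± 0.560 CPM) and Foxn1, the master factor of thymic epithelium (242.1 ± 13.4 to 192.0 ± 11.8 CPM), lower.

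Polycomb proteins keep Hox genes silent, and trithorax proteins keep them active. Of 18 Polycomb genes tested in the Aire comparison 2 rose, Phc3 (54.5 ± 7.49 to 112.1 ± 27.1 CPM) and Jarid2 (109.2 ± 13.4 to 147.6 ± 19.0 CPM), and the lowest adjusted p of 18 in the Fezf2 comparison was 0.0577. In the Chd4 cKO 3 of 19 rose and 2 fell, a share no larger than the 28.6% of all genes, among them Phf19 (1.41 ± 0.832 to 8.98 ± 2.62 CPM), Cbx6 (53.1 ± 2.70 to 79.0 ± 4.09 CPM) and Bmi1 (42.3 ± 10.6 to 17.2 ± 3.05 CPM). Of 11 trithorax and demethylase genes 2 rose there, also below 28.6%, Men1 (50.4 ± 10.8 to 86.8 ± 3.80 CPM) and Kmt2a (37.6 ± 4.08 to 51.9 ± 4.83 CPM). Their lowest adjusted p was 0.0544 in the Aire and 0.134 in the Fezf2 comparison.

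Retinoic acid and CDX factors induce Hox genes in the embryo. Of 16 such genes 11 were tested in the Aire comparison, with 1 higher and 3 lower. Aldh1a2, the main retinoic acid synthase of the embryo, fell in each knockout, from 12.5 ± 3.47 to 1.97 ± 2.07 CPM (labelled Aire KO), from 23.3 ± 8.31 to 8.30 ± 1.79 CPM (Fezf2 KO) and from 21.1 ± 2.24 to 12.3 ± 1.62 CPM (Chd4 cKO). Aldh1a3, another synthase, fell in the libraries labelled Aire KO (63.3 ± 1.22 to 44.5 ± 4.36 CPM) but rose in the Chd4 cKO (67.4 ± 2.84 to 95.7 ± 22.6 CPM). Cyp26a1, which degrades retinoic acid, rose in the libraries labelled Aire KO (152.3 ± 17.1 to 319.4 ± 63.9 CPM) and fell in the Fezf2 KO (83.5 ± 11.5 to 48.6 ± 2.22 CPM) and the Chd4 cKO (111.3 ± 35.2 to 29.5 ± 14.4 CPM). The Fezf2 comparison had 2 of 14 lower, and the Chd4 comparison 2 of 14 higher and 3 lower, against 4.87% and 28.6% of all genes. Gdf11, a growth factor of the posterior axis, was among the higher in the Chd4 cKO (2.65 ± 1.34 to 8.04 ± 0.884 CPM).

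Of the coding genes next to the clusters, Skap1 fell in the Fezf2 KO, and Ttll6 fell and Calcoco1 rose in the Chd4 cKO. Skap2 and Evx1 flank HoxA, Ttll6 and Skap1 HoxB, Calcoco1 and Smug1 HoxC, and Evx2 and Mtx2 HoxD. Evx1 and Evx2, homeobox genes that adjoin the posterior ends of HoxA and HoxD, had 0 reads in both Aire groups and at most 5 reads in any library of the others. Calcoco1 rose in the Chd4 cKO from 50.4 ± 4.97 to 64.3 ± 1.89 CPM (log2 fold change 0.35, adjusted p = 0.0378). Mtx2, a mitochondrial import gene, had log2 fold changes of -0.04, -0.25 and -0.16 in the Aire, Fezf2 and Chd4 comparisons, with adjusted p of 0.873, 0.587 and 0.278.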

How the data were processed

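RNA of sorted mTECs was made into libraries with a SMART-seq v4 kit, per the labels' protocols. The authors deposited read counts (total exon reads per gene and library), per the file headers, and a summary table with log2 levels of each group and p-values and q-values of their comparisons. Of these summary values, only the levels and q-value of Hoxc11 in the Fezf2 comparison are printed. The submitters' processing notes name DESeq2 and the builds mm10 and GRCm38. The sources used here name no aligner or strand setting, and genes that share exons with others (16 of the 39, 7 over 20% of their bases) therefore have uncertain counts. Columns name a group and a barcode, so libraries were mapped to groups, with A, B and C in barcode order, and 216 other columns of library values were left unused. Starts were raised by 1, after which all 39 genes had the GENCODE GRCm38 span.

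Each comparison was fitted over all its genes on its 6 libraries in R 4.3.3 using edgeR 4.0.16 (TMM, filterByExpr with a minimum count of 10, quasi-likelihood F test), and Benjamini-Hochberg adjusted p under 0.05 were called. SE is the log2 fold change over the square root of F. Contrasts between effects used the 16169 genes tested that share an ID between tables. The fits were tested on simulated counts with 200 genes changed 4-fold or 16-fold. They recovered 86% to 98% of the changed genes, and 4.46% to 7.98% of the calls were false at the 0.05 threshold. The changed genes were drawn at random from all genes tested. These rates were therefore not measured for genes with as few reads as the Hox genes, or for smaller changes. Intervals on read ratios are exact (binomial) and, like the floor of 3 reads, cover counting error only. The members, lists and rules were chosen with earlier results of these data known. Named were Hoxa3, genes called in a comparison or contrast, the highest gene per length in each cluster, genes with 10 or more reads in each library of a group and 0 in the other (there were 0 such), list genes called (up to 4 a list) and the flanking coding genes. Other genes given with values were chosen after these were seen. Alternatives were other normalization, no filter, DESeq2 1.42.0, pooled spread, each library left out, other position classes and sums per exon length.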

Additional observations from a re-analysis of the deposited data

Results flagged for a closer look

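The contrasts between knockout effects called 9 differences in Hox genes, all by edgeR's test of the difference itself in the fit of 18 libraries. Between the Fezf2 and the Aire effect, Hoxb13 differed by 6.63, Hoxb9 by 2.44 and Hoxc11 by -3.99 on the log2 scale. Between the Chd4 and the Aire effect, Hoxb13 differed by 5.75 and Hoxc10 by 3.26. Between the Chd4 and the Fezf2 effect, Hoxc11 differed by 5.33, Hoxc10 by 3.92, Hoxc6 by 2.90 and Hoxd1 by 5.01. Contrasts that share an effect are not independent of each other. Groups of 3 libraries are too small for a test of single outlying libraries. Library B of the WT for Fezf2 held 64 of the 89 Hoxc11 reads of its group.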

How the results depend on the processing

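Of 87 refits of single Hox fold changes, 66 kept their call, 21 lost it and 0 changed direction. Leaving out a library gave 1 to 2 called genes in the Aire comparison, 0 to 1 in the Fezf2 comparison and 1 to 2 in the Chd4 comparison, and 0 between the WT groups by edgeR in every case. Without the count filter, 2 genes were called in the Fezf2 comparison, Hoxc11 and Hoxd1. With the spread estimated from all 18 libraries, 0 were called in the Chd4 comparison, although the direction of each was kept and 3 had an unadjusted p under 0.05, and DESeq2 on its 6 libraries called 2. In the contrast of the Fezf2 and Aire effects DESeq2 called 5 genes where edgeR called 3, adding Hoxb6 and Hoxd3. Hoxb13 in the Aire comparison kept its call in all 10 alternatives, with log2 fold changes of -8.39 to -5.88 and adjusted p up to 0.00344. Of 60 refits of medians and sums, 22 moved by more than 0.3 on the log2 scale, the value used for this check. Unique exon reads were not run, since each group has 3 mapped columns only. No paired analysis was possible because the count columns carry no replicate number. A gene with few reads cannot show a modest change at this depth, and 29 of the 39 were tested in none of the knockout comparisons.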
